A study of Homo sapiens with 2 samples.

Results

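The genes described here are the core of the switch that commits a cell to divide. They are the D cyclins CCND1, CCND2 and CCND3, their partner kinases CDK4 and CDK6, the CIP/KIP inhibitors CDKN1A (p21), CDKN1B (p27) and CDKN1C (p57), and the INK4 inhibitors CDKN2C (p18) and CDKN2D (p19). These 10 genes were chosen by symbol, and 9 of them had an array probe assigned to that gene alone, out of 18377 genes measured in this way. Each of the 9 had 1 probe. CDKN2C was not analysed here, since no probe carried its symbol in the annotation used.

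A D cyclin binds CDK4 or CDK6, and the complex phosphorylates the retinoblastoma protein RB1 and its relatives, which releases E2F transcription factors and allows entry into S phase. INK4 proteins bind the kinases and keep the cyclins out, whereas CIP/KIP proteins bind assembled cyclin-kinase complexes, block CDK2 and can also help D cyclins and their kinases to assemble. In blood cells the D cyclins are the step at which cytokine receptors act on the cell cycle, and loss of BCR-ABL1 signalling in chronic myeloid leukaemia cells is known to lower D cyclins and to raise p27.

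Expression was measured in K562, an established line of human leukaemia cells driven by the BCR-ABL1 fusion kinase. The 2 cultures had both been exposed to 2 µM imatinib, which inhibits that kinase, for 6 h. One culture was grown with erythropoietin (EPO), the cytokine of red cell formation, at a dose the labels do not give. The label of the other names no EPO, and it is read as the culture without EPO that the growth protocol mentions. Both are cultures of 1 line, each was measured on 1 Affymetrix Gene ST array from total RNA, and cells without imatinib were not analysed here. The comparison asks how these genes differed with and without EPO while BCR-ABL1 was inhibited.

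The deposited values are log2 deviations from a baseline of each probe that the authors set and that is not known, so they do not tell how abundant a transcript was. For the same reason the identity of the cells could not be checked by marker levels. The base of the logarithm is read as 2. A difference is the value with EPO minus the value without EPO, and a gene is called higher or lower when it differed at least 2-fold, which is 1 on the log2 scale. Each group has 1 array, so nothing could be tested and no difference can be set against a spread between replicates. Over all genes, 6.19% passed this line upward and 0.898% downward, with a median difference of -0.05 and a standard deviation across genes of 0.53.

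Promoter sequence from RefSeq (GRCh38.p14) was held for 7 of the 10 genes, and for none of CCND1, CCND2 and CDKN1C. The 250 bases before the annotated start are shown for both kinases, which lay close together on the arrays, and for CDKN1A, which lay on the other side of 0. Each reads 5′ to 3′ on its gene's strand, and capitals mark CACGTG, the E-box bound by MYC and related factors, and GGGCGG on either strand, the GC box bound by SP1-type factors. CDK6 has another annotated start, not shown.
CDK4, chr12:57752311-57752560, minus strand: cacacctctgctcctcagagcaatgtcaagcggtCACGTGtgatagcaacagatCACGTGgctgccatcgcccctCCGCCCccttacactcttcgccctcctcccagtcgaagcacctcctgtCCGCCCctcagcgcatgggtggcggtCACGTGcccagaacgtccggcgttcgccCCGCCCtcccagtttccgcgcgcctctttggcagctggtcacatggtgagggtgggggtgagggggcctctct
CDK6, chr7:92836574-92836823, minus strand: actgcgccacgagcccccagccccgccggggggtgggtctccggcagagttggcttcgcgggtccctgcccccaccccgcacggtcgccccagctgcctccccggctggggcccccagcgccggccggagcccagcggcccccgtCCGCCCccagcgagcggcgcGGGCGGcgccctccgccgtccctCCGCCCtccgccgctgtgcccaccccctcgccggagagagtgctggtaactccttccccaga
CDKN1A, chr6:36678464-36678713, plus strand: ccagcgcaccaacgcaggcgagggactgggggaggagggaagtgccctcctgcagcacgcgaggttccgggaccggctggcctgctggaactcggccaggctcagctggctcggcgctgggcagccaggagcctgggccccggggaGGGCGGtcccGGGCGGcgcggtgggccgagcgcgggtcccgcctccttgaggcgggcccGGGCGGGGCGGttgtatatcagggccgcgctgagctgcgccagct

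The CDK4 window held 3 E-boxes, at 216, 196 and 101 bases before the start, counted to the first base of each motif. Of the 35116 windows of this length in the table, 6.34% held at least 1 CACGTG and 28 windows (0.0797%) held 3 or more. Of the 12 windows of the 7 genes, the only others with a CACGTG were 2 of the 3 for CDKN2C, with 1 each, at 220 and 69 bases before the start. GC boxes were more widespread. CDK4 and CDK6 held 3 each and CDKN1A held 4, of which the last pair overlap, and 13.9% of all windows held at least 3. The motif TTCNNNGAA of STAT factors, present in 6.57% of all windows, was found in none of the 12 windows of the 7 genes. CCND1, CCND2 and CDKN1C could not be searched, and 3 of the 12 windows were of CDKN2C, which was not analysed on the arrays. The forkhead motif TGTTTAC (2.98% of all windows) and the E2F motifs TTTGGCGC (0.55%) and TTTCCCGC (1.39%), also searched on both strands, were found in none of the 12 windows either. These matches describe letters in a window of 250 bases and are not evidence of binding.

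Among the D cyclins, only CCND2 was called. CCND2, which encodes cyclin D2, the D cyclin most closely tied to cytokine and STAT5 signalling in blood cells, stood at 0.57 on the array with EPO and at -0.99 on the array without it. It was above the baseline with EPO and below it without. The difference of 1.56 is 2.95-fold and ranked 78 from the top among 18377 genes. On the array with EPO alone, its deviation lay at percentile 99.96 of all genes. As these are bulk cultures, a change in the number of cells of a kind and a change in RNA per cell cannot be told apart here or for any gene below.

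CCND3, the cyclin D3 gene, which is prominent in maturing red cell precursors, stood at -0.02 with EPO and at -0.29 without EPO. Both arrays were below the baseline, and the difference of 0.28 was well within 2-fold. CCND1, the cyclin D1 gene, had values of -0.14 with EPO and 0.37 without EPO. Here the order of the arrays was the opposite of that for CCND2, with a difference of -0.51 (1.42-fold lower with EPO). The 3 D cyclins thus spread from -0.51 to 1.56. Gaps between genes do not depend on a constant shift between the arrays. CCND2 exceeded CCND1 by 2.07 and CCND3 by 1.28 in this measure, and CCND3 exceeded CCND1 by 0.79.

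The partner kinases lay together. CDK6 stood at 0.26 with EPO and at -0.83 without EPO, a difference of 1.09 (2.14-fold). CDK4 stood at 0.08 and -0.91, a difference of 0.99 (1.99-fold), just short of the 2-fold line. Both genes were low on the array without EPO, at percentiles 6.48 and 4.91 of that array. The gap between the kinases was 0.10, so the call for CDK6 and the lack of one for CDK4 do not separate them. In this pair 1 of 2 genes was called, beside 6.19% of all genes.

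**Figure D1:**
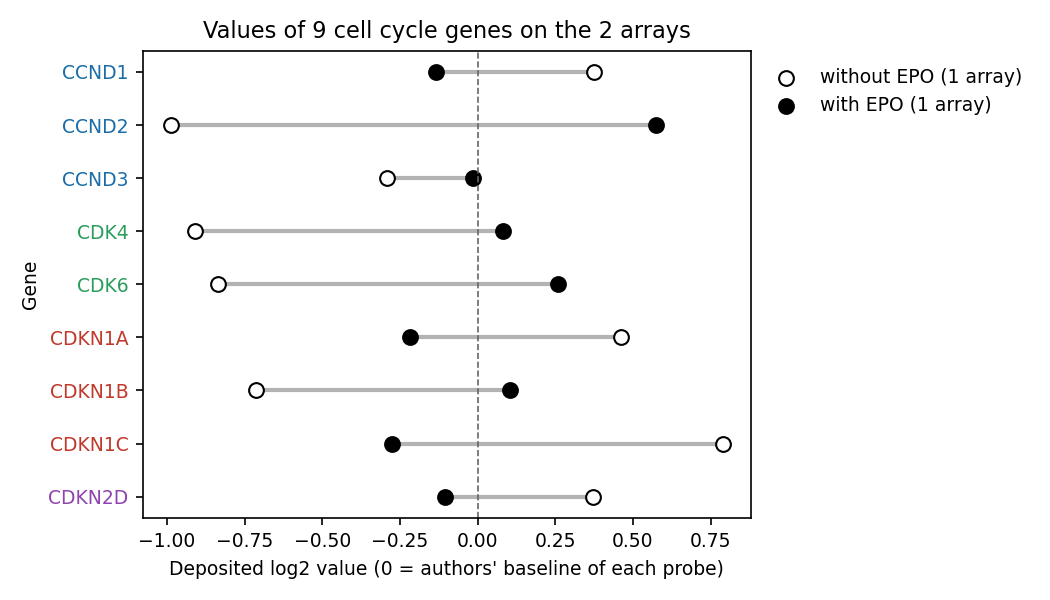
Deposited log2 values (x axis, 0 is the authors' baseline of each probe) of the 9 measured genes (y axis, coloured by role) on the array with EPO (filled) and on the array without EPO (open), 1 array each. CCND2, CCND3, CDK4, CDK6 and CDKN1B have the filled point to the right and CCND1, CDKN1A, CDKN1C and CDKN2D to the left, and the open point lies farther from 0 in all 9.

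The CIP/KIP inhibitors split. CDKN1C, an imprinted inhibitor that slows the cycle of many stem and precursor cells, stood at -0.28 with EPO and at 0.79 without EPO. It was below the baseline with EPO and above it without, the reverse of CCND2. Its difference of -1.07 (2.10-fold lower with EPO) ranked 155 from the bottom of all genes, and CDKN1C was the 1 member called lower. CDKN1A, which encodes a broad inhibitor of cyclin-kinase complexes, ran the same way, at -0.22 with EPO and 0.46 without EPO. Its difference of -0.68 (1.60-fold lower) lay at percentile 2.75 of all genes and was not called.

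CDKN1B went the other way. It encodes p27, an inhibitor controlled by FOXO factors and, more strongly, by protein degradation. The array with EPO read 0.10 and the other -0.71, and the difference of 0.82 (1.76-fold higher) was not called. The gap to CDKN1A was 2.82-fold and the gap to CDKN1C 3.69-fold, whereas CDKN1A and CDKN1C lay 1.31-fold apart. Its difference was nearer to those of CDK4 and CDK6 than to those of the other inhibitors.

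The INK4 inhibitor CDKN2D, which binds CDK4 and CDK6 directly, stood at -0.11 with EPO and at 0.37 without EPO. Its difference of -0.48 (1.39-fold lower) was close to that of CCND1. Of the 4 inhibitors measured, 3 had lower values with EPO, as did 10032 of all 18377 genes. The median of the 4 inhibitors was -0.58. Of the 5 cyclins and kinases, 4 had higher values with EPO, beside 45.4% of all genes.

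Over the 9 genes, CCND2 and CDK6 (2 genes) passed 2-fold upward, beside 6.19% of all genes, and CDKN1C (1 gene) downward, beside 0.898%, with a median difference of 0.28 and a mean of 0.22. In descending order the differences ran CCND2, CDK6, CDK4, CDKN1B, CCND3, CDKN2D, CCND1, CDKN1A and CDKN1C. Without replicates, it cannot be said which neighbours in this order differ beyond error. The array without EPO lay farther from the baseline for all 9 genes, as it did for 82.6% of all genes, and the arrays lay on opposite sides of it for 8 of the 9, against 83.2% of all genes. Those shares describe the baseline as much as the genes. The standard deviation across probes was 0.43 on the array without EPO and 0.13 on the array with EPO.

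Differences on these arrays were unlike between classes of genes, which bears on how a member is read. The classes were chosen with earlier results of these data known. A class of 260 genes of cellular machinery, taken by symbol from genes of translation initiation, the nuclear pore, RNA polymerase II, the spliceosome, the proteasome, the mitochondrial ribosome and the respiratory chain, had a median difference of 0.51. A class of 479 genes from families that most cells keep silent, such as olfactory receptors, had a median of -0.33. Above 0 were 80.8% of the machinery genes and 8.35% of the genes of silent families. CCND2 lay at percentile 98.8 of the machinery genes and above every gene of the silent families. Within the machinery class, CDK6 was at percentile 90.0, CDK4 at 84.6 and CDKN1B at 73.8. Each of these genes was at percentile 99.8 of the silent families. CCND3 was at percentile 34.2 of the machinery genes and 97.5 of the silent families. CCND1, CDKN2D and CDKN1A lay at percentiles 28.8, 32.6 and 15.0 of the silent families. Among the machinery genes they lay at percentiles 1.92, 2.69 and 1.15. CDKN1C lay at percentile 2.09 of the silent families and below every machinery gene. CCND2 thus lay above the range of the silent families and CDKN1C below that of the machinery genes, each within the range of the other class. The other 7 were within the range of both classes, several of them near the edge of 1. The part of this class difference in the members' values was not tested.

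**Figure D2:**
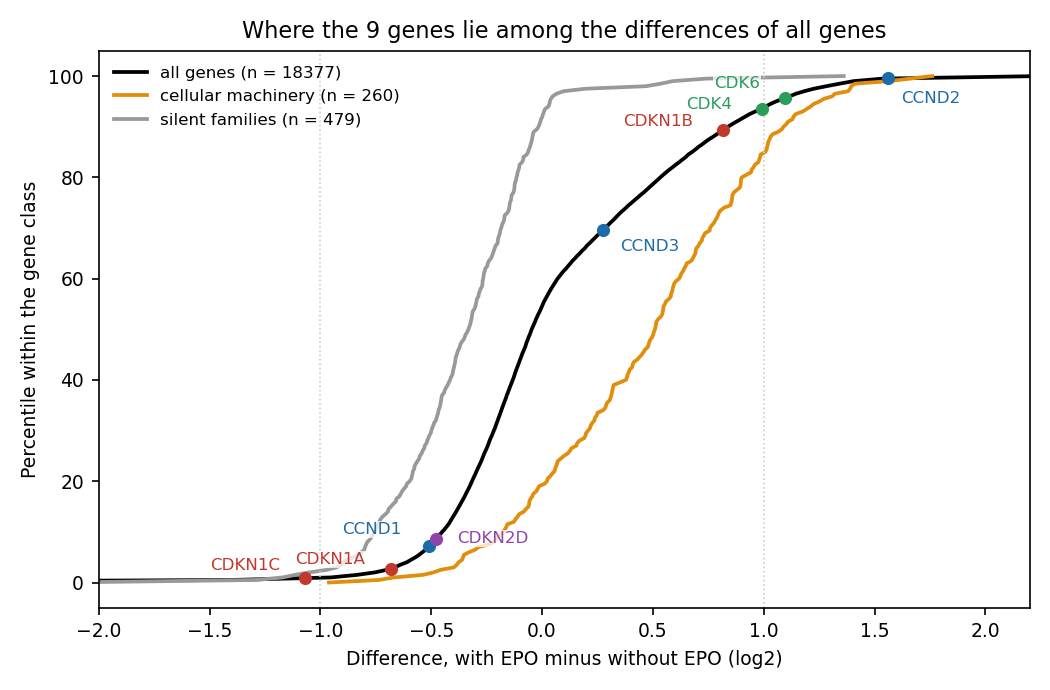
Difference with EPO minus without EPO on the log2 scale (x axis) against its percentile (y axis) for all 18377 genes (black line), 260 cellular machinery genes (orange) and 479 genes of silent families (grey), 1 array per group. Points are the 9 genes on the line of all genes and dotted lines mark 2-fold. CCND2 lies at the upper end at 1.56 and CDKN1C at the lower end at -1.07.

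Subtracting the median of either class moved every difference by the same amount and changed the calls, but not the order or the gaps. With the machinery median subtracted, CCND2 remained at least 2-fold higher at 1.05, CDK6 and CDK4 were at 0.59 and 0.48 and CDKN1B at 0.31, while CCND3 changed sign to -0.23. CDKN1C at -1.58, CDKN1A at -1.19 and CCND1 at -1.02 were then all at least 2-fold lower, and CDKN2D was at -0.99. Under that scaling 0.577% of all genes were higher and 7.87% lower. With the silent median subtracted, CCND2 (1.89), CDK6 (1.43), CDK4 (1.32) and CDKN1B (1.15) were higher, against 15.3% of all genes, and no member was lower, with CDKN1C at -0.74, against 0.55% of all genes. With the median of all genes subtracted, CDK4 joined CCND2 and CDK6 at 1.04, so that 3 members were higher, beside 7.17% of all genes, and CDKN1C stayed lower, beside 0.849%. CCND2 was the one member called under all 4 scalings, the deposited values included. At a threshold of 1.5-fold on the deposited values, 4 members were higher, beside 18.1% of all genes, and 2 lower, beside 4.65%. At 3-fold no member was called, beside 0.365% and 0.37% of all genes.

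**Figure D3:**
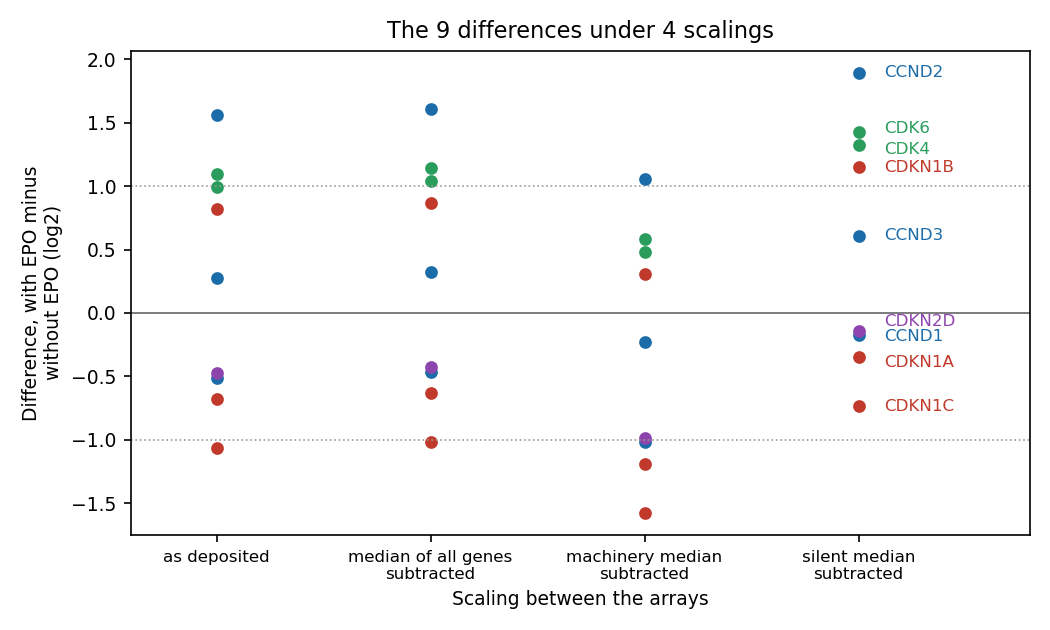
Differences with EPO minus without EPO on the log2 scale (y axis) of the 9 genes under 4 scalings between the arrays (x axis), 1 array per group. Dotted lines mark 2-fold. CCND2 stays above the upper line throughout, from 1.05 to 1.89, while CDKN1C is below the lower line in 3 of the 4.

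The 5 genes listed with the other CDK inhibitor loci, not all of them CDK inhibitors, were within 2-fold. K562 cells are known to have lost the CDKN2A and CDKN2B locus, which encodes p16, p14ARF and p15. The CDKN2A probe stood at -0.06 with EPO and 0.22 without EPO, and the CDKN2B probe at -0.05 and 0.23. Both therefore differed by -0.27 and -0.28, close to the median of the silent families. CDKN2D and CCND1 were 0.20 and 0.23 further below 0 than CDKN2A, CDKN1A was 0.41 below it and CDKN1C 0.79. The others of that list of 5 were CDKN3, a phosphatase that acts on CDK2, at 0.77, CDKN2AIP at -0.33 and CDKN2AIPNL at 0.32. CDKN2AIP and CDKN2AIPNL carry CDKN2A in their names.

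The substrates of the kinases and the E2F factors had mostly positive differences. Of 13 pocket protein, E2F and DP genes, 2 were higher by at least 2-fold and 0 lower, with 12 above 0 and a median of 0.51. Of all genes, 6.19% were higher, 0.898% lower and 45.4% above 0. Of the 260 machinery genes, 40 were higher, 0 lower and 80.8% above 0. E2F7, a repressor of E2F targets, stood at 1.18 and the E2F partner TFDP1 at 1.13. E2F3 stood at 0.76 and RB1 at 0.75, whereas E2F1 was the 1 gene below 0, at -0.18. With the machinery median subtracted the list's median was 0.0047 and no gene was called.

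Genes that E2F factors switch on at the start of S phase had the highest median of the wider lists, 0.75 over 22 measured genes, with 6 higher and 0 lower. The replication licensing factor CDC6 led at 1.89, followed by the helicase subunit MCM6 at 1.55 and the ribonucleotide reductase subunit RRM1 at 1.44. In the list of other cyclins and cell cycle kinases, 4 of 24 were higher and 0 lower, with a median of 0.57. Beside the counts of both lists, 6.19% of all genes and 40 of the 260 machinery genes were higher. CDK1, the mitotic kinase, stood at 1.55, CCNC, a cyclin of the Mediator complex, at 1.42 and the mitotic cyclin CCNB2 at 1.23. CCNE1 and CCNE2, the E cyclins that act with CDK2 after the D cyclins, were within 2-fold at 0.44 and 0.60. These 2 lists share 4 genes. With the machinery median subtracted the medians were 0.24 and 0.06, with 2 and 1 genes higher, beside 0.577% of all genes.

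Genes for the turnover of D cyclins and CIP/KIP proteins had a median of 0.41. Of the 23, 1 was higher and 0 lower, beside 6.19% and 0.898% of all genes. The 1 gene was FBXO4, an F-box protein reported to target cyclin D1 for degradation, at 1.99 (3.98-fold), from 0.31 with EPO and -1.69 without EPO. SKP2, the F-box protein that marks p27 for degradation, stood at 0.97 and its partner SKP1 at 0.91. In the same list CKS2 stood at -0.61 and CKS1B at 0.03. Among factors that assemble or regulate the kinases, 2 of 14 were higher and 0 lower, with a median of 0.24. CDK2AP1, which binds CDK2, stood at 1.17, CCNDBP1, which binds D cyclins, at 1.03 and the transcriptional coregulator SERTAD2 at 0.91. CDC37, the co-chaperone that loads CDK4 onto HSP90, stood at -0.58. The HSP90 genes HSP90AA1 and HSP90AB1 went the other way, at 0.63 and 0.40. Both medians turned negative with the machinery median subtracted, to -0.10 for the turnover list and to -0.27 for the regulators. The turnover list then had 1 gene higher and 1 lower, and the regulators 0 higher and 1 lower. Of all genes, 0.577% were then higher and 7.87% lower.

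**Figure D4:**
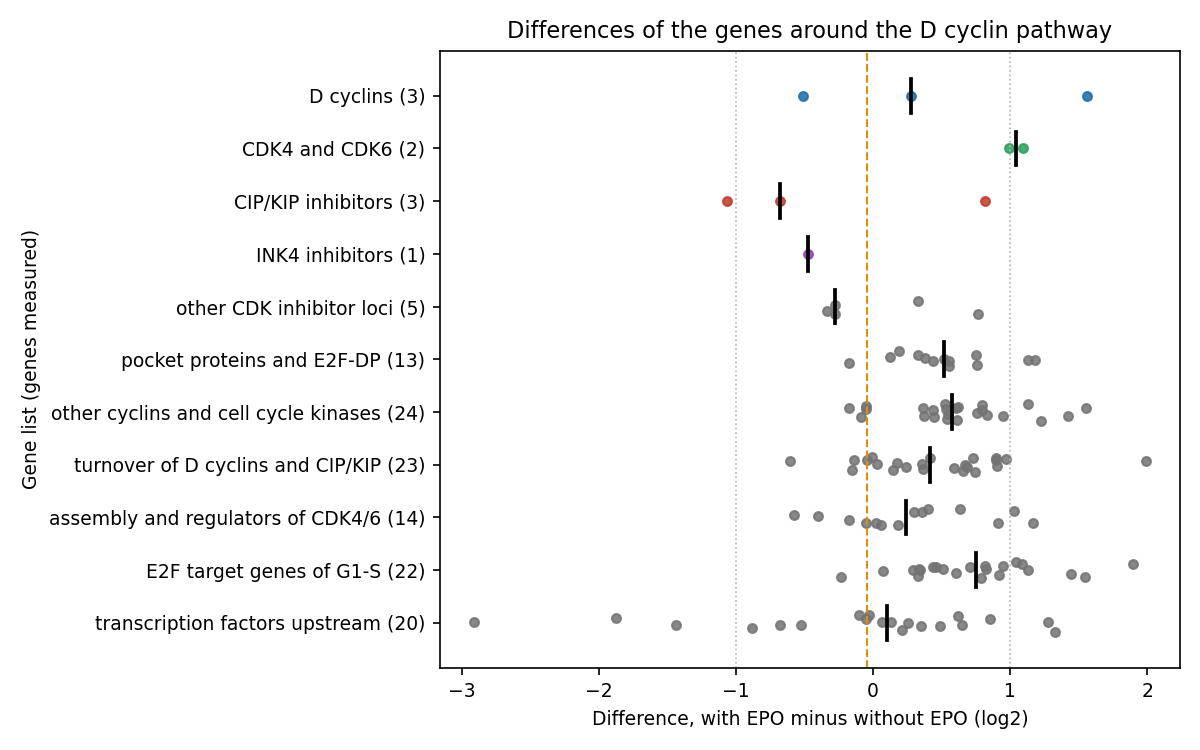
Difference with EPO minus without EPO on the log2 scale (x axis) of each gene (points) in the lists around the D cyclin pathway (y axis, number of genes measured in brackets), 1 array per group. Black bars are list medians, the dashed line is the median of all genes (-0.05) and dotted lines mark 2-fold. E2F targets have the highest median of the wider lists at 0.75, and the CIP/KIP genes lie on both sides of 0.

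Among the transcription factors known to act on these promoters, the median was 0.10. Of the 20, 2 were higher and 3 lower, beside 6.19% and 0.898% of all genes. The lower genes were EGR1 at -2.92, JUN at -1.88 and FOS at -1.44, and the higher genes SMAD2 at 1.33 and SP1 at 1.28; the pair higher was named after its values were seen. FOXO3, which can activate CDKN1B and repress D cyclins, stood at -0.89, FOXO1 at -0.53 and FOXO4 at 0.49. STAT5A and STAT5B stood at 0.21 and 0.35, and MYC at 0.07. With the machinery median subtracted the median of this list turned negative, to -0.41, with 0 genes higher and 6 lower. Of all genes, 0.577% were higher and 7.87% lower under that scaling.

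Marker genes of cell types were counted as well. Of 9 measured erythroid genes, 1 was at least 2-fold higher, the transferrin receptor TFRC at 1.02, followed by the haem enzyme ALAS2 at 0.84 and the transcription factor TAL1 at 0.81, and the median was 0.25. The lists of lymphoid, granulocyte-monocyte and epithelial-stromal markers had medians of -0.36, -0.30 and -0.20. In these lists 0 of 9, 1 of 9 and 1 of 10 genes were higher and 0, 1 and 0 lower. Of all genes, 6.19% were higher and 0.898% lower. Largest in size were CD7, CD3D and CD2 (-0.67, -0.67 and -0.45) among lymphoid genes, CEBPA, LYZ and FCN1 (-1.07, 1.05 and -0.77) among granulocyte-monocyte genes, and EPCAM, COL1A1 and VIM (1.25, -0.57 and -0.54) among epithelial-stromal genes. With the machinery median subtracted no gene of the 4 lists was higher, and the erythroid median turned to -0.26. Under that scaling 0 erythroid, 2 lymphoid, 3 granulocyte-monocyte and 3 epithelial-stromal genes were lower, beside 7.87% of all genes. With the silent median subtracted the granulocyte-monocyte and epithelial-stromal medians turned to 0.03 and 0.13. Their part in the members' differences was not tested.

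With 2 arrays, likeness of pattern between genes is a distance between pairs of values. Nearest to CCND2 were UGP2, an enzyme that makes UDP-glucose, at a distance of 0.025, the ribosome biogenesis factor WDR12 at 0.11 and ITPRIP at 0.13. UGP2 was the 1 gene within 0.1 of it. Nearest to CDKN1C were KIFC2 at 0.030, TBCA at 0.032 and CARF at 0.052, and 19 genes lay within 0.1.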

How the data were processed

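The authors deposited log2 values for 28869 probes on 2 arrays, centred probe by probe. Base, background correction, summarisation, normalization and genome build, not given in the sources used here, could not be stated. The scaling between the arrays is unknown. The median value was -0.0089 on the array with EPO and 0.052 on the other. Per the labels' protocols, RNA was isolated with a miRNeasy kit and labelled as sense-strand cDNA.

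Probes were named through the platform annotation, updated by Entrez ID to RefSeq symbols. The 19310 probes with 1 symbol were used, and their values averaged per gene, giving 18377 genes. The 1752 probes with several symbols and 7807 unlisted ones were left out. No filter was possible on centred values. The number of arrays limits the precision.

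The members, gene lists and classes were chosen with earlier results of these data known. Named genes are the members, the 3 largest differences in each list, all genes past 2-fold in the pocket protein, turnover and other inhibitor lists, and the 3 genes nearest to the highest and lowest member. Others were named after their values were seen: E2F1, RB1, CCNE1, CCNE2, CDC37, FOXO factors, SMAD2, SP1, STAT5A, STAT5B, MYC, CDKN2A and CDKN2B. The same holds for HSP90AA1, HSP90AB1, CKS2 and CKS1B. Alternatives were 3 scalings, 2 probe rules, thresholds of 1.5-fold and 3-fold, and the mean. Motifs were searched on both strands. Python 3.11.15 with pandas 2.3.3 and NumPy 2.4.6 was used.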

Additional observations from a re-analysis of the deposited data

How the results depend on the processing

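The count of members at least 2-fold higher with EPO, 2 as deposited, was 1 with the machinery median subtracted, 4 with the silent median subtracted, 4 at a 1.5-fold threshold and 0 at 3-fold. The count lower, 1 as deposited, was 3, 0, 2 and 0 under the same settings. Of all genes, 6.19% were higher as deposited, and 0.577%, 15.3%, 18.1% and 0.365% under those settings in turn. The share of all genes lower was 0.898% as deposited, then 7.87%, 0.55%, 4.65% and 0.37%. The median difference of the 9 genes, 0.28 as deposited, was -0.23 with the machinery median and 0.61 with the silent median subtracted. With the median of all genes subtracted, 3 members were higher, CDK4 among them at 1.04, and 1 lower, beside 7.17% and 0.849% of all genes. No called difference changed sign. Choosing another probe changed no value, since each gene had 1 probe. No paired analysis was possible because each group has 1 array. Leaving out an array was not possible for the same reason, and signal over background was not analysed here.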
